A study of Homo sapiens with 24 samples.

Results

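The genes described here are 10 members of the machinery that carries a cell from G1 into S phase: the D-type cyclins CCND1, CCND2 and CCND3, the E-type cyclins CCNE1 and CCNE2, the cyclin-dependent kinases CDK2, CDK4 and CDK6, and the transcription factors E2F1 and E2F2. They were taken by name as one pathway, by a rule that uses no measured value, although earlier results of these data were known when it was written. All 10 were found among the 60675 gene ids of each library. The study measured bulk polyadenylated RNA from HCT116, an established human colorectal cancer cell line, in 3 versions that differ in p53: wild type (here WT), mutant (Mutant) and null (Null). The 4 treatments of every line were solvent (0 uM, 0 Gy), APR-246 at 20 uM, irradiation at 6 Gy, and irradiation after pretreatment with the compound (the combination), and cells were collected 72 hours after irradiation. APR-246 is a small molecule developed to restore the activity of mutant p53. There were 2 libraries per group and 24 in all. Each p53 status is held by 1 line, so an effect of p53 cannot be told apart from other differences between the lines. How the lines were made is not given in the sources used here.

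As background, cyclin D with CDK4 or CDK6 phosphorylates the retinoblastoma protein, which releases E2F factors. E2F1 and E2F2 then raise the genes for DNA replication, and also CCNE1, CCNE2 and their own transcription, while cyclin E with CDK2 completes the phosphorylation of the retinoblastoma protein. The p53 target CDKN1A inhibits these kinases and slows entry into S phase after DNA damage.

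Totals were 53184139 to 58058729 reads per library, recovered from the steps of the deposited CPM values (reads per gene scaled to the same library total). Of 9 colon epithelium markers, 6 were above 10 CPM in every library (EPCAM, KRT8, KRT18, CDH1, KRT19 and CDX2), while CDX1, VIL1 and CEACAM5 stayed below 2 CPM. All 6 blood markers and 5 of 6 fibroblast markers stayed below 2 CPM in every library, COL1A1 being the exception. In 11 of 12 groups, the slope of expression on the GC content of genes was more positive in library 2 than in library 1. In WT solvent, for example, it was -0.053 in library 1 and 0.026 in library 2. The exception was Null under APR-246. The members differed between the libraries too, and the part of the slope in this was not tested for single genes. CCND3 was higher in library 2 than in library 1 in 12 of 12 groups, by a median of 1.32 on the log2 scale, E2F1 in 11 of 12 by 1.11 and CDK4 in 11 of 12 by 0.96. CDK6, with a GC content of 39.5%, was lower in library 2 in 9 of 12 groups, with a median difference of -0.88. CCND1, with a GC content of 50.3%, was split evenly, 6 groups against 6, with a median of 0.01. A second model that holds the slope of each library as a covariate ("with the GC slope") is therefore given beside the test without it where the calls differ. The slope also differed between treatments, at -0.065 and 0.023 in Mutant solvent and 0.013 and 0.030 in Mutant irradiation. It is computed from the same expression values. How much of a treatment difference the covariate takes up or adds was not tested.

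**Figure D1:**
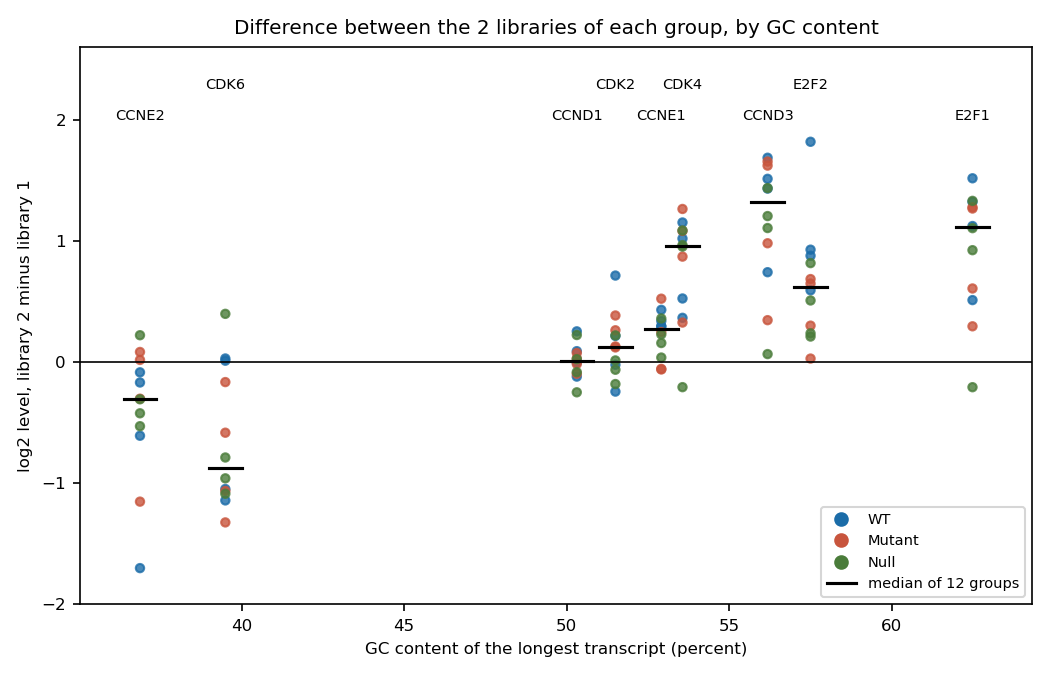
Difference between the 2 libraries of each group for the 9 members tested, plotted against the GC content of the gene's longest transcript in percent. The y axis is the log2 level of library 2 minus that of library 1, each point is 1 of 12 groups coloured by line, and black bars are medians. CCND1 sits at a median of 0.01 and CCND3 at 1.32.

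Ordered by CPM per kb of exon, the median levels over 24 libraries were 102 for CCND1, 42.6 for CDK4, 36.6 for E2F1, 13.7 for CCND3, 10.5 for CCNE1, 10.3 for CDK2, 5.95 for E2F2, 0.910 for CDK6 and 0.333 for CCNE2. CCND1 was above CDK4 in 23 of 24 libraries, and E2F1 was above CCND3 in 24 of 24. Neighbours that changed places between libraries were CDK4 and E2F1 (CDK4 higher in 15 of 24), CCND3 and CCNE1 (16 of 24), and CCNE1 and CDK2 (12 of 24). So did E2F2 and CDK6 (E2F2 higher in 22 of 24), and CDK6 and CCNE2 (CDK6 higher in 19 of 24). CCND2 was last, with 0 to 26 reads per library, 0 reads in 7 libraries and more than 3 reads in 9. Its 26 reads were in WT irradiation library 2, at 0.489 CPM. A count of 0 allows up to 0.0517 to 0.0564 CPM, depending on the library, by a floor of 3 reads that covers counting error only. This floor takes reads as independent. Many reads enter in pairs, as described under the processing, so it is too low. CCND2 did not pass the filter on low counts and was not tested, which left 9 members. It overlaps CCND2-AS1 on the other strand and AC008012.1 on its own, so these reads are uncertain.

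E2F1 and E2F2 are among the genes that E2F factors are known to act on. Their start regions are shown because both genes were lower in WT than in Null in the mean over 4 treatments, as described below. The lines give the 100 bases upstream of the RefSeq start (GRCh38.p14), 5′ to 3′ on the strand of the gene, with matches to an E2F motif in capitals. E2F1 lies on the minus strand at chr20:33686386-33686485 and E2F2 on the minus strand at chr1:23531234-23531333.
E2F1: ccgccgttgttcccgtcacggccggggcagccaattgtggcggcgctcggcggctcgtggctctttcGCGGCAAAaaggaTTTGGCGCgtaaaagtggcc
E2F2: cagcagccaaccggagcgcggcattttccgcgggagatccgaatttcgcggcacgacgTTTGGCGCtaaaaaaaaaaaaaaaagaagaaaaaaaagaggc
The motif was searched as TTTCGCGC, TTTGGCGC, TTTCCCGC or TTTGCCGC on both strands. Windows of 300 bases (250 before and 50 after the start) were listed for 6 of the 10 members. Only the first listed window of each was searched, while CCND3 had 3 listed and CDK6 had 2. E2F1 held 2 matches, at -33 to -26 (on the reverse strand) and at -20 to -13 from the start, and E2F2 held 1, at -42 to -35. CCND3, CCNE1, CDK4 and CDK6 held none in the windows searched. Of all 34943 windows of this length, 3.3% held the motif. The cyclic AMP response element TGACGTCA and the AP-1 site TGANTCA, which 1.84% and 7.72% of all windows held, had no match in the 6 windows searched. A match is a description of letters and not a measured site.

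CCND1, cyclin D1, the partner of CDK4 and CDK6 that links growth signals to the cell cycle, rose after irradiation in WT cells, 2.36-fold on average. It was the only member called for any treatment comparison by limma with the 12 groups as its only terms. The gene lies at chr11:69641087-69654474 (GRCh38, plus strand), and its exons overlap those of LTO1 on the other strand. LTO1 had 9.64 to 22.7 CPM in WT libraries. WT solvent libraries held 546 and 350 CPM of CCND1, and WT libraries under APR-246 held 576 and 496 CPM. After irradiation the WT libraries held 1207 and 768 CPM, and under the combination 1430 and 1567 CPM. All 4 irradiated WT libraries lay above all 4 unirradiated ones, a separation that 5.05% of all genes tested showed in this direction. In Mutant cells the values were 568 and 356 CPM in solvent, 494 and 328 under APR-246, 432 and 397 after irradiation, and 554 and 450 under the combination. In Null cells they were 490 and 279, 407 and 535, 597 and 394, and 600 and 421 CPM in the same order. Irradiated and unirradiated libraries overlapped in both of these lines.

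Irradiation against solvent in WT gave a log2 difference of 1.14 ± 0.26 (SE, n = 2 and 2, adjusted p = 0.0363 by limma) for CCND1, in a comparison where 1.56% of all genes were called. The combination against solvent gave 1.51 ± 0.26 (adjusted p = 0.00589; 2.23% of genes called). The combination against APR-246, which shares no library with irradiation against solvent, gave 1.33 ± 0.26 (adjusted p = 0.0288; 0.411% called). Averaged over the solvent and APR-246 arms, 4 libraries against 4, the difference was 1.24 ± 0.18 (adjusted p = 0.00112; 3.94% called). This averaged call was kept when any 1 of its 8 libraries was left out. It was lost when only the WT libraries were fitted (1.22, adjusted p = 0.195 by limma). Irradiation against solvent lost its call without any 1 of its 4 libraries (1.08 to 1.20), without TMM scaling (adjusted p = 0.139) and in edgeR (0.0619). The combination against APR-246 lost it without any 1 of its 4 libraries (1.21 to 1.46), without TMM (0.0891) and in edgeR (0.0846), and the combination against solvent without either WT solvent library 2 or WT combination library 2 (adjusted p of at most 0.0931).

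**Figure D2:**
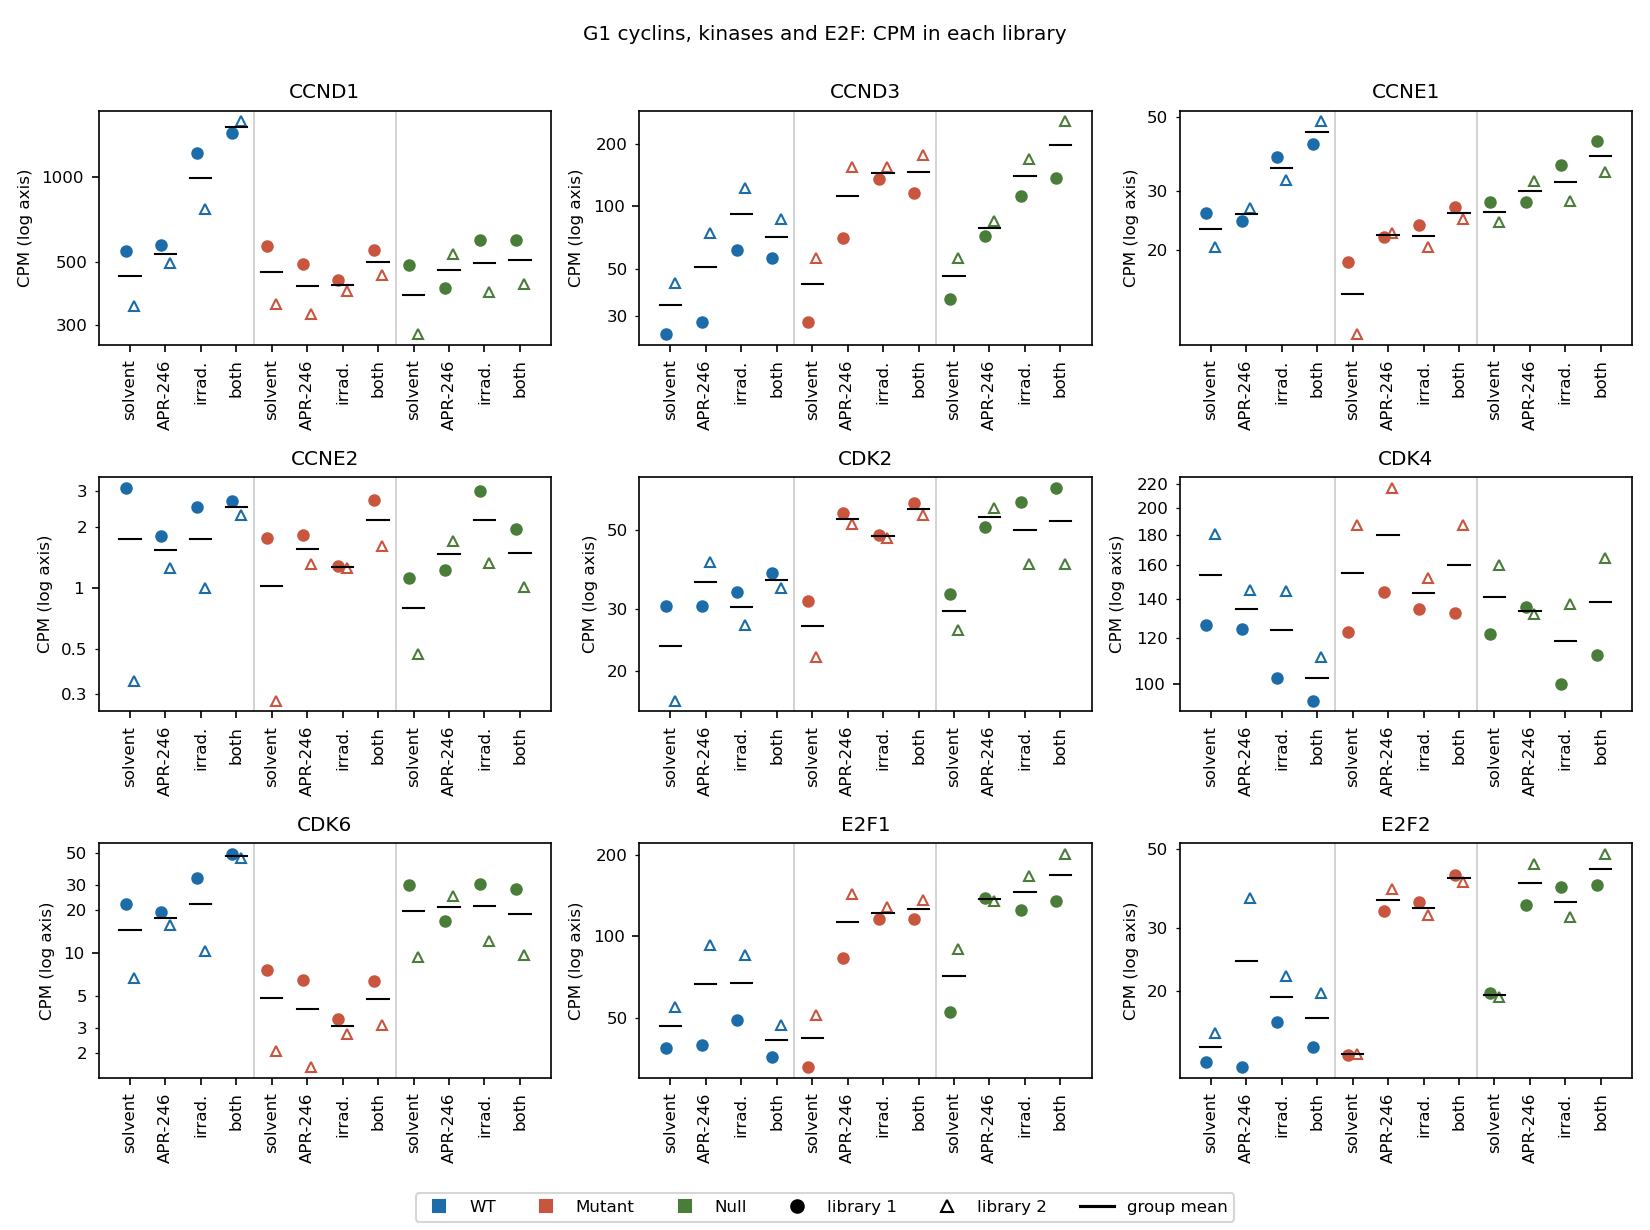
CPM of the 9 members tested in each of the 24 libraries, on a log axis of its own for each gene. Colours mark the lines, filled circles library 1, open triangles library 2 and bars the mean of the 2. For CCND1 the 4 irradiated WT libraries reach 768 to 1567 CPM and stand above all other libraries of the plot.

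APR-246 alone left CCND1 in WT within its error, at 0.18 ± 0.26 (adjusted p = 1 by limma, 95% interval -0.37 to 0.72), and 0% of the 20668 genes were called in that comparison. At an unadjusted p below 0.05 there were 557 genes, and edgeR and DESeq2 each called 0. Adding APR-246 to irradiation in WT gave 0.37 ± 0.26 (adjusted p = 0.785 by limma, 95% interval -0.18 to 0.91), again with 0% of genes called. The averaged effect of irradiation on CCND1 was 0.08 ± 0.18 for Mutant and 0.23 ± 0.18 for Null (adjusted p = 0.903 and 0.686), where 0.523% and 1.17% of genes were called. The difference between the WT and Null responses was 1.01 ± 0.26 (95% interval 0.46 to 1.55), with an adjusted p of 0.277 by limma, and was not called, as for all but 0.126% of genes. DESeq2 called it and edgeR did not. With the GC slope the same difference was 1.00 ± 0.12 (adjusted p = 3.48e-05 by limma, 3.48% of genes called). For irradiation against solvent alone the WT and Null responses differed by 0.91 ± 0.36 (adjusted p = 1 by limma, 0.029% of genes called). Mutant and Null responses differed by -0.15 ± 0.26 (adjusted p = 1). In bulk RNA, fewer cells in a given phase and less RNA per cell cannot be told apart, for CCND1 and for every gene below.

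**Figure D3:**
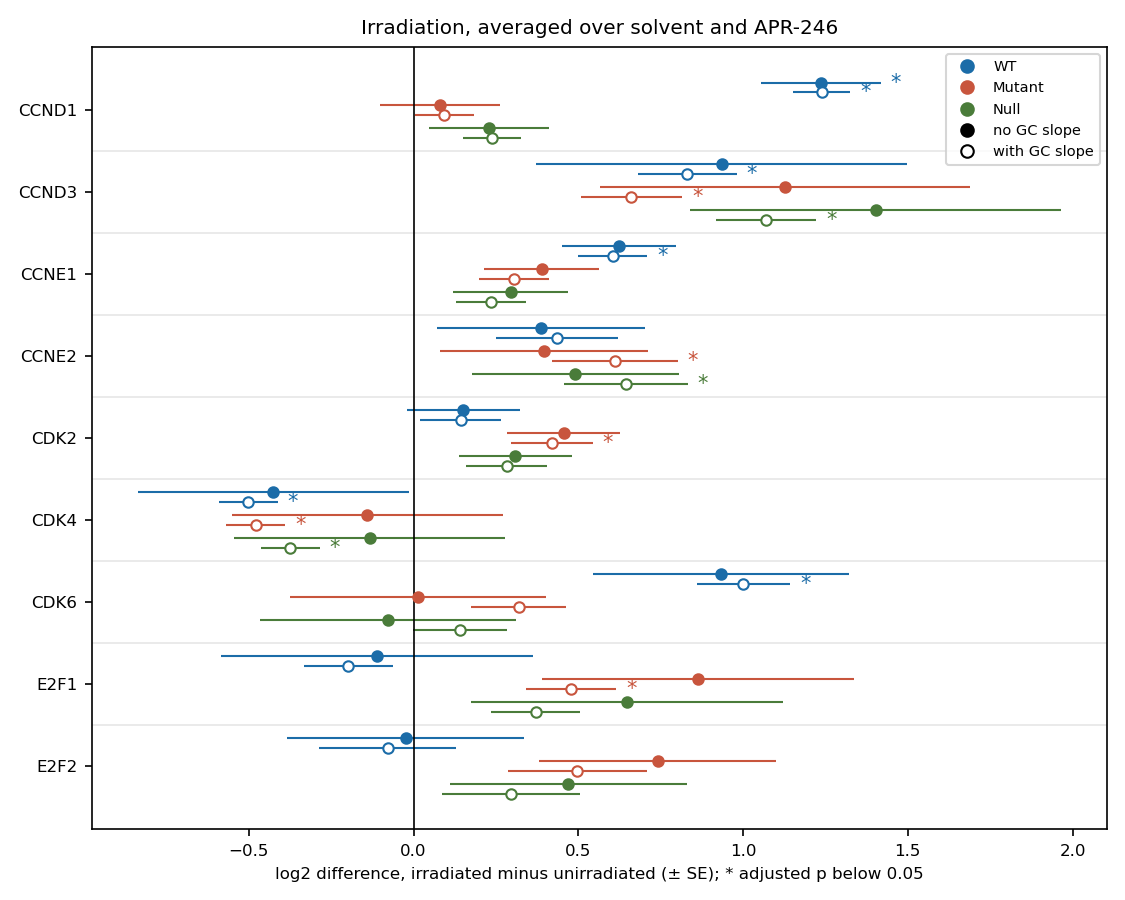
Effect of irradiation on each member, averaged over the solvent and APR-246 arms, as a log2 difference with its SE on the x axis. Filled points are from limma without the GC slope, open points with it, colours are the lines, and asterisks mark adjusted p below 0.05. CCND1 in WT, at 1.24, carries the asterisk in both models. CDK6 in Null changes sign between them.

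CCND3, cyclin D3, showed higher values after irradiation in all 3 lines, but its 2 libraries per group were far apart. In Null cells it was at 35.9 and 56.5 CPM in solvent, 72.2 and 85.2 under APR-246, 112 and 169 after irradiation, and 137 and 256 under the combination. The irradiated Null libraries did not overlap the unirradiated ones, as for 5.57% of genes tested. In Mutant cells the same groups held 28 and 56.7, 70.2 and 155, 135 and 154, and 115 and 176 CPM, and in WT cells 24.4 and 43.0, 28.1 and 74.2, 61.7 and 123, and 56.3 and 87.0 CPM. The averaged effect of irradiation was 1.40 ± 0.56 for Null, 1.13 ± 0.56 for Mutant and 0.93 ± 0.56 for WT, and limma called 0 of the 3 (adjusted p = 0.287, 0.513 and 0.509). With the GC slope the values were 1.07 ± 0.15, 0.66 ± 0.15 and 0.83 ± 0.15, all 3 called (adjusted p = 0.000121, 0.00813 and 0.000413 by limma). That model called 3782, 2577 and 5153 of the 20668 genes in these 3 comparisons.

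CCND1 made up most of the D-type cyclin mRNA per length in every library. Its share was 88.2 to 96.8% in WT, 71.8 to 96.1% in Mutant and 66.4 to 94.2% in Null. The remainder was almost wholly CCND3, whose median share was 4.25% in WT, 17.7% in Mutant and 13.9% in Null. These shares are ratios within a library and carry the GC difference between the libraries.

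**Figure D4:**
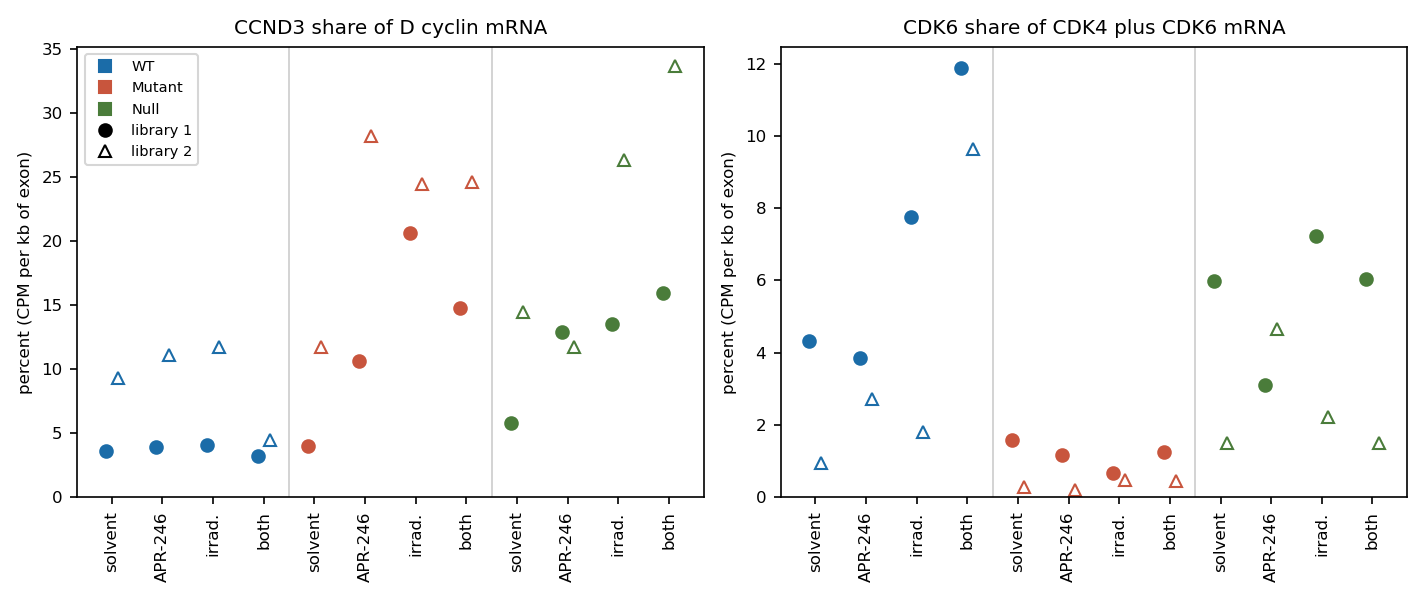
Share of CCND3 in the D-type cyclin mRNA (left) and of CDK6 in the sum of CDK4 and CDK6 (right), in percent of CPM per kb of exon, for each of the 24 libraries. Colours are the lines, filled circles library 1 and open triangles library 2. The CDK6 share stays at or below 1.56% in all 8 Mutant libraries.

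CDK4 and CDK6 are the kinases that the D-type cyclins activate. CDK6 was low in the Mutant line, at 0.215 times the Null level over the same treatments. The 8 Mutant libraries held 1.60 to 7.55 CPM with a median of 3.29. The 8 Null libraries held 9.33 to 30.2 CPM, with a median of 20.8, and the WT libraries 6.65 to 49.0, with a median of 20.6. Mutant and Null libraries did not overlap, as for 1.44% of genes tested in this direction. Mutant overlapped WT only through WT solvent library 2, at 6.65 CPM. The mean over 4 treatments was lower by a log2 difference of -2.22 ± 0.27 against Null (adjusted p = 3.74e-05) and of -2.31 ± 0.27 against WT (adjusted p = 3.83e-05), by limma with n = 8 and 8. In solvent alone the Mutant value against Null was -2.11 ± 0.55 (adjusted p = 0.0567 by limma), just outside the threshold, and -2.47 ± 0.20 with the GC slope (adjusted p = 6.49e-09 by limma).

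Within WT, CDK6 was at 22.0 and 6.65 CPM in solvent, 19.2 and 15.7 under APR-246, 33.4 and 10.2 after irradiation, and 49.0 and 46.0 under the combination. The combination libraries were the highest of all 24 for this gene, whose exons overlap the antisense gene AC002454.1. The combination against solvent was 1.66 ± 0.55 (adjusted p = 0.147 by limma) and the averaged effect of irradiation 0.93 ± 0.39 (adjusted p = 0.258), neither called. With the GC slope they were 1.37 ± 0.20 (adjusted p = 5.51e-05) and 1.00 ± 0.14 (adjusted p = 2.01e-05), both called by limma. The averaged WT response exceeded that of Null by 1.01 ± 0.55 (adjusted p = 1), or by 0.86 ± 0.20 with the GC slope (adjusted p = 0.0164).

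CDK4 varied least of the members, 2.31-fold from 93.8 to 217 CPM over all libraries. WT libraries held 126 and 181 CPM in solvent, 124 and 145 under APR-246, 103 and 145 after irradiation, and 93.8 and 111 under the combination. The averaged effect of irradiation in WT was -0.43 ± 0.41 (adjusted p = 0.759 by limma), and -0.50 ± 0.09 with the GC slope (adjusted p = 0.000223). CDK4 was 88.1 to 99.1% of the sum of CDK4 and CDK6 per length in WT, 98.4 to 99.8% in Mutant and 92.8 to 98.5% in Null. Its exons overlap TSPAN31 on the other strand, which had 6.54 to 16.6 CPM over all libraries.

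CCNE1, cyclin E1, which activates CDK2 at the start of S phase, was lower in the Mutant line than in either other line. Its median was 22.2 CPM in Mutant (11.3 to 27), 30.1 CPM in Null (24.3 to 42.3) and 29.5 CPM in WT (20.4 to 48.4). The ranges overlapped, while the mean over 4 treatments differed by -0.64 ± 0.12 between Mutant and Null (adjusted p = 0.00214) and by -0.53 ± 0.12 between Mutant and WT (adjusted p = 0.00994), by limma. In solvent the Mutant libraries held 18.5 and 11.3 CPM and the Null libraries 27.8 and 24.3 CPM, a log2 difference of -1.0 ± 0.25 (adjusted p = 0.0397 by limma, 2.49% of genes called). That call was lost without any 1 of its 4 libraries, at values of -1.18 to -0.82. The other solvent comparisons called 0 of 9 members, WT against Null with 0.992% and Mutant against WT with 0.629% of genes called.

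In WT cells CCNE1 was at 25.8 and 20.4 CPM in solvent, 24.4 and 26.8 under APR-246, 38.0 and 32.3 after irradiation, and 41.5 and 48.4 under the combination. The 4 irradiated libraries lay above the 4 unirradiated ones, as they did for CCND1. The averaged effect was 0.62 ± 0.17 (adjusted p = 0.0581 by limma), just outside the threshold, and 0.60 ± 0.10 with the GC slope (adjusted p = 0.000189).

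CCNE2, cyclin E2, was scarce, at 0.277 to 3.12 CPM, which is 16 to 173 reads per library. Its exons overlap those of INTS8 on the other strand. INTS8 had 11 to 55.6 CPM, and the strand setting of the counting is not given in the sources used here, so the part of INTS8 reads in the CCNE2 values was not tested. The lowest CCNE2 values were in library 2 of the 3 solvent groups, at 0.347 CPM in WT, 0.277 in Mutant and 0.468 in Null, against 3.12, 1.76 and 1.12 in library 1. CCNE2 was called in no comparison by limma with the 12 groups as its only terms. With the GC slope, the combination against solvent in Mutant was 1.20 ± 0.27 (adjusted p = 0.00391 by limma), against 0.97 ± 0.45 (adjusted p = 0.403) without the GC slope. CCNE1 made up 93.5 to 99.0% of the E-type cyclin mRNA per length in WT, 94.5 to 98.6% in Mutant and 95.4 to 98.9% in Null.

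CDK2, the partner of cyclin E, was lower in WT than in the other lines in the mean over 4 treatments. The solvent libraries of the 3 lines overlapped. Over the same treatments WT was below Null by a log2 difference of -0.65 ± 0.12 (adjusted p = 0.00187) and Mutant was above WT by 0.58 ± 0.12 (adjusted p = 0.0052), by limma. In Mutant cells CDK2 was at 31.5 and 21.9 CPM in solvent, 55.8 and 51.9 under APR-246, 48.5 and 47.5 after irradiation, and 59.4 and 55.1 under the combination. In Null cells the values were 33.0 and 26.1, 50.8 and 57.8, 60.0 and 40.2, and 65.9 and 40 CPM. All 6 treated libraries of each line lay above both solvent libraries. The WT values, 30.5 and 16.5, 30.4 and 40.7, 33.5 and 27, and 37.9 and 34.3 CPM, overlapped. CDK2 shares exon bases with PMEL and AC025162.1 on the other strand.

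E2F1 and E2F2 are the activating E2F factors among the members. In Mutant cells E2F1 was at 32.9 and 51.1 CPM in solvent, 83.4 and 143 under APR-246, 116 and 129 after irradiation, and 116 and 136 under the combination. In Null cells it was at 52.5 and 89.9, 139 and 136, 125 and 167, and 135 and 201 CPM. WT cells held 38.8 and 54.8, 39.8 and 93.1, 49.2 and 85.7, and 35.8 and 47.2 CPM, with no separation from solvent. E2F2 was at 13.3 and 13.4 CPM in Mutant solvent and at 32.7 to 42.3 CPM in the 6 treated Mutant libraries. In Null it was at 19.9 and 19.3 CPM in solvent and at 32.2 to 48.3 CPM in the treated libraries. In WT it was at 12.7 and 15.3 CPM in solvent and at 12.3 to 36.3 CPM in the treated libraries, the highest being library 2 under APR-246.

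CDK2, E2F1, E2F2 and CCND3 thus had all 6 treated libraries above both solvent libraries in Mutant and in Null, and CCNE1 did so in Mutant. That separation was common: 10.1% of all genes tested showed it in Mutant and 11.8% in Null, and the 3 treatments of a line share the same 2 solvent libraries. With the 12 groups as its only terms, limma called 0 of the 9 members for any treatment in Mutant or Null. Other models did call members. DESeq2 called CDK2 for all 3 treatments in Mutant and for the combination in Null, and edgeR called 0 members. Of all genes, DESeq2 called 598 for irradiation, 101 for APR-246 and 633 for the combination in Mutant, and 1124 for the combination in Null. At an unadjusted p below 0.05, the combination against solvent had 6 members in Mutant and 3 in Null. At that threshold there were 2439 and 3120 of the 20668 genes tested. After adjustment, the share of genes called by limma for the combination against solvent was 0.348% in Mutant and 1.95% in Null. For irradiation against solvent it was 0.0774% and 0.677%, and for APR-246 against solvent 0% and 0.131%. For the combination against APR-246 it was 0% and 0.0242%. In Mutant, CDK2 reached 1.04 ± 0.24 (adjusted p = 0.0723), E2F1 1.53 ± 0.67 (adjusted p = 0.377) and E2F2 1.52 ± 0.51 (adjusted p = 0.202) by limma. The Null values were 0.74 ± 0.24 for CDK2 (adjusted p = 0.129), 1.20 ± 0.67 for E2F1 (adjusted p = 0.434) and 1.09 ± 0.51 for E2F2 (adjusted p = 0.328).

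With the GC slope the same differences were smaller for E2F1 and E2F2 and their errors were smaller still. E2F1 under the combination was 1.13 ± 0.19 for Mutant and 0.87 ± 0.19 for Null (adjusted p = 0.000684 and 0.00223). E2F2 was 1.27 ± 0.30 (adjusted p = 0.00871) and 0.88 ± 0.30 (adjusted p = 0.0397), and CDK2 1.00 ± 0.17 (adjusted p = 0.000735) and 0.71 ± 0.17 (adjusted p = 0.00459), all by limma. That model called 6 members higher and CDK4 lower in Mutant, where 16.5% of all genes were called, and 7 higher and CDK4 lower in Null, where 24.6% were. APR-246 alone with the GC slope gave 6 members higher in Mutant (6.74% of genes called) and 3 in Null (15.1%), and 0 in WT (0%). For irradiation in WT, averaged over both arms, it called CCND1, CCND3, CCNE1 and CDK6 higher and CDK4 lower, where 24.9% of genes were called.

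Averaged over treatments, E2F1 was lower in WT than in Null by a log2 difference of -1.32 ± 0.34 (adjusted p = 0.0161) and E2F2 by -1.0 ± 0.25 (adjusted p = 0.0163), by limma. In this comparison 4 of 9 members were called, CCND1 higher by 0.65 ± 0.13 (adjusted p = 0.00302) and CDK2, E2F1 and E2F2 lower, where 11.8% of all genes were called. In solvent alone limma called 0 of the 9 between WT and Null, and the CCND1 mean was 448 CPM in WT and 384 CPM in Null. In the mean over treatments, Mutant against WT gave 4 of 9 (9.65% of genes called), with CDK2 higher and CCND1 (-0.75 ± 0.13, adjusted p = 0.0011), CCNE1 and CDK6 lower. Mutant against Null gave 2 of 9 (12% called), CCNE1 and CDK6, both lower. E2F1 and E2F2 were not called between Mutant and WT (0.83 ± 0.34, adjusted p = 0.143, and 0.73 ± 0.25, adjusted p = 0.0849, by limma). That depended on the model. Both became called in some recomputations, E2F1 under 4 of the 9 other settings, and up to 8 members were called in this comparison. The counts with the GC slope are given at the end. E2F1 was 83.9 to 91.9% of the sum of E2F1 and E2F2 per length over all libraries.

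**Figure D5:**
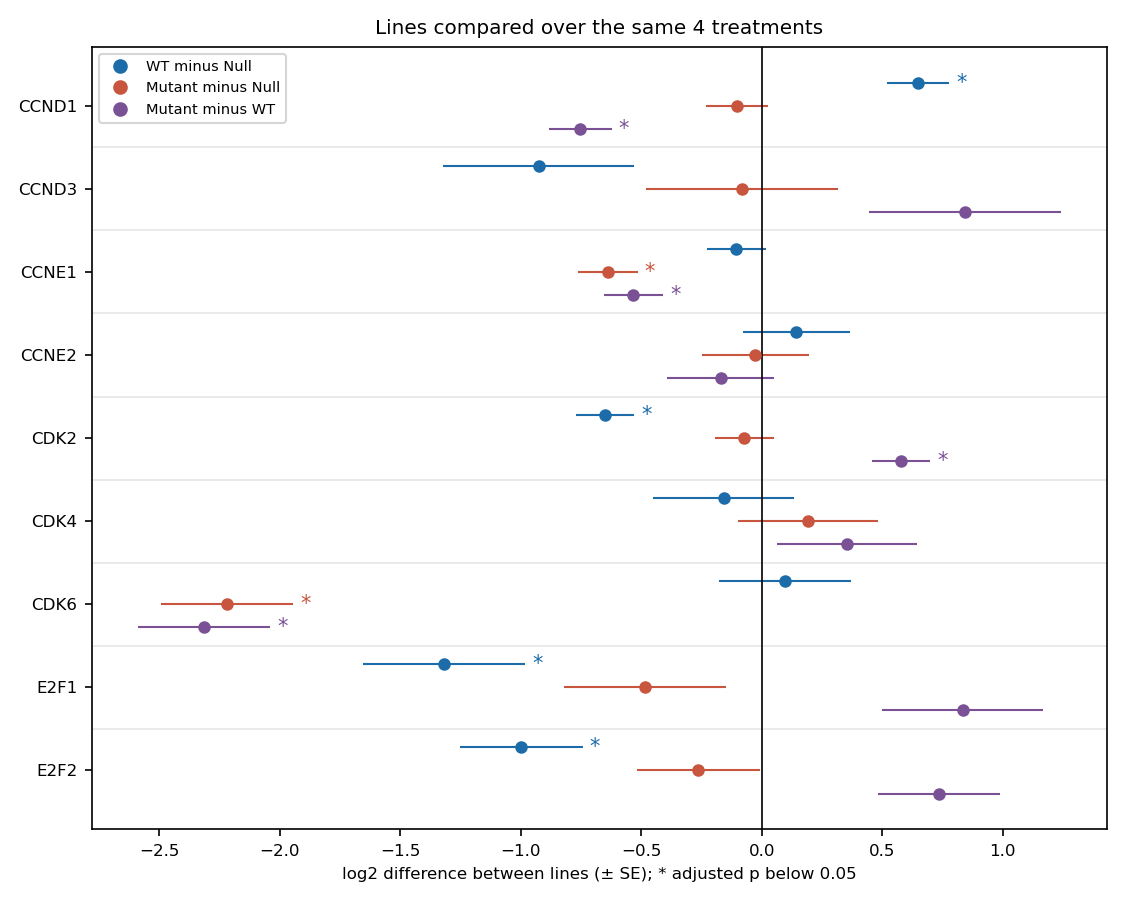
Differences between lines in the mean over 4 treatments, as log2 differences with their SE on the x axis, for the 9 members tested, 8 libraries against 8. Asterisks mark adjusted p below 0.05 by limma without the GC slope. CDK6 lies at -2.22 for Mutant against Null and -2.31 for Mutant against WT.

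Whether the combination differed from APR-246 plus irradiation added on the log2 scale was tested in each line, and 0 members were called. The 27 values of the combination beyond additive ranged from -1.61 to 0.68 on the log2 scale with adjusted p from 0.929 to 1 by limma, and 0% of genes were called in each line. At an unadjusted p below 0.05 there was 1 member, in Mutant, where 766 of the 20668 genes were, and edgeR and DESeq2 called 0 members. Their 95% intervals reached from -3.99 to 2.33, so large departures lie within the error. The combination against irradiation likewise called 0 of 27 member values, which ranged from -0.92 to 1.07, with 0% of genes called, 0 members at an unadjusted p below 0.05 and 0 in edgeR and DESeq2.

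Genes of the same pathway were counted from lists written with earlier results of these data known. Of 7 CDK inhibitors of G1, CDKN1A rose after irradiation in WT by 1.72 ± 0.28 (adjusted p = 0.00263 by limma), from 508 to 751 CPM in the unirradiated to 1930 to 2253 CPM in the irradiated libraries. It was the 1 of 7 called in that comparison, averaged over both arms, where 3.94% of all genes were called. The median of the list was -0.09 against 0.01 for all genes. Over treatments CDKN1A was higher in WT than in Null by 2.01 ± 0.20 (adjusted p = 4.26e-06), while CDKN2C and CDKN2D, inhibitors of CDK4 and CDK6, were lower by -2.0 ± 0.27 (adjusted p = 0.000112) and -1.34 ± 0.16 (adjusted p = 3.54e-05). Of 11 further E2F, DP and pocket protein genes, 1 was called between WT and Null, where 11.8% of all genes were called, so the count is near that share. It was TFDP2, a partner of E2F factors, at 0.62 ± 0.18 (adjusted p = 0.0323). Leaving out any of 10 single libraries ended that call. Of 13 genes of G1 cyclin and p27 turnover, 2 were lower in WT than in Null, again near the share of all genes, among them CKS1B, a cofactor in p27 degradation, at -0.56 ± 0.12 (adjusted p = 0.00589).

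Of 26 E2F targets of S phase entry, 14 were lower in WT than in Null over treatments and 0 higher, where 11.8% of all genes were called, with a list median of -0.67 against 0.02 for all genes. Examples are CCNA2, cyclin A2, at -0.93 ± 0.14 (adjusted p = 0.00021 by limma), and RRM2, a subunit of ribonucleotide reductase, at -0.95 ± 0.16 (adjusted p = 0.000627). Mutant against WT gave 9 higher and 0 lower, where 9.65% of all genes were called, CCNA2 by 0.78 ± 0.14 (adjusted p = 0.00135). For the combination against solvent, 1 of 26 rose in WT, 2 in Mutant and 3 in Null, where 2.23%, 0.348% and 1.95% of all genes were called. The list medians were 0.27, 1.46 and 0.98. PCNA, the sliding clamp of DNA polymerases, rose in all 3 lines, by 1.62 ± 0.34 for WT, 1.83 ± 0.34 for Mutant and 1.63 ± 0.34 for Null (adjusted p = 0.0155, 0.0341 and 0.0262). Each of these 3 PCNA calls was lost without at least 3 of its 4 libraries, left out singly. With the GC slope, 4 of the 26 rose and 1 fell in WT, 25 rose in Mutant and 19 rose in Null, where 21.7%, 16.5% and 24.6% of all genes were called. The WT count is near its share.

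Of 15 genes of G2 and mitosis, 10 were lower in WT than in Null over treatments and 0 higher, where 11.8% of all genes were called, with a list median of -0.98. CCNB2, cyclin B2, was lower by -1.17 ± 0.13 (adjusted p = 1.49e-05 by limma). After irradiation in WT, averaged over both arms, 2 of 15 fell, where 3.94% of all genes were called. These were CDC25C, a phosphatase that activates CDK1, by a log2 difference of -1.17 ± 0.19 (adjusted p = 0.00292) and CCNB2 by -0.70 ± 0.18 (adjusted p = 0.0438). The CCNB2 call was lost without any of 6 of its 8 libraries. Of 6 activators of G1 kinases, CDC25A, a phosphatase that activates CDK2, rose under the combination in Mutant by 1.57 ± 0.30 (adjusted p = 0.0352). In that comparison 0.348% of all genes were called. Leaving out any 1 of the 4 libraries ended the CDC25A call.

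Of 9 tested genes on the list of inducers of cyclin D1, 0 were called for averaged irradiation in WT, where 3.94% of all genes were called, so a count of 0 says little about the list. FOS, a subunit of AP-1, rose in the other lines, by 1.02 ± 0.18 for Mutant and 1.10 ± 0.18 for Null (adjusted p = 0.0206 and 0.0106 by limma), averaged over both arms. EGR1, an early response factor, rose in Mutant by 1.15 ± 0.23 (adjusted p = 0.0347). The Mutant calls were lost without any 1 of 8 libraries for EGR1 and without any of 6 for FOS, and the Null call without Null APR-246 library 1. In WT FOS was at -0.34 ± 0.18 (adjusted p = 0.422 by limma). Between lines, MYC was lower in Mutant than in WT by -0.61 ± 0.16 (adjusted p = 0.0192 by limma). That call was lost without WT combination library 2 or Mutant irradiation library 2. Between WT and Null, TCF7L2, a WNT pathway factor, was higher in WT by 0.69 ± 0.13 (adjusted p = 0.00229 by limma). FOSL1 was lower in WT by -1.20 ± 0.29 (adjusted p = 0.0116 by limma). The line differences of this list are means over 4 treatments, where 11.8% of all genes were called between WT and Null. The share was 9.65% for Mutant against WT and 12% for Mutant against Null. Between Mutant and Null, TCF7L2 was higher in Mutant by 1.03 ± 0.13 (adjusted p = 4.76e-05 by limma). AXIN2, which is on the list but is not itself an inducer of cyclin D1, was lower in Mutant than in Null. The difference was -1.52 ± 0.29 (adjusted p = 0.00187 by limma). AXIN2 was also lower in Mutant than in WT (adjusted p = 0.0357). Under the combination in Null, AXIN2 rose against solvent by 3.04 ± 0.57 (adjusted p = 0.021 by limma).

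The protein-coding genes most like each member were taken by Pearson correlation of the 12 group means of log2 levels, among 9935 candidates. These are descriptions over means that share the GC and library differences given above. For CCND1 they were PPM1D, a phosphatase induced by p53 (r = 0.977), and EME2 (r = 0.968). E2F1 was most like CDT1, a replication licensing factor (r = 0.991), and MYBL2 (r = 0.986). E2F2 was most like MCM7, a subunit of the replicative helicase (r = 0.994), and SUV39H1 (r = 0.989), and CDK2 most like CHAF1A (r = 0.988) and EME1 (r = 0.983). CCND3 went with BAG3 and GRWD1, CDK4 with WWP2 and PMVK, CDK6 with CXADR and PROM2, CCNE1 with NDUFA4 and SH3RF2, and CCNE2 with HSPE1 and MID1, at r from 0.888 to 0.985.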

How the data were processed

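FastQC, STAR, featureCounts and Subread are named, with the build GRCh38.p13, per the submitters' processing notes. Versions, annotation release and counting strand are not given in the sources used here. The values the authors deposited are CPM per gene and library. Dividing by the smallest step gave whole reads for 100% of values within 0.05. Of values of 2 to 9 reads, 74.5 to 81.5% were even, so many reads enter in pairs and are not independent.

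Members and lists were chosen with earlier results of these data known. Symbols were matched for 60419 ids. Coordinates, exon lengths and GC content came from GENCODE 29, and start windows from RefSeq. Genes passing filterByExpr (count minimum 10) numbered 20668. The main test was limma-trend with robust variance (limma 3.58.1, edgeR 4.0.16, R 4.3.3) on log2 of TMM-scaled CPM plus 0.5. It had 1 coefficient for each of 12 groups and 12 residual degrees of freedom. Differences of weakly expressed genes are understated on that scale. Calls needed a p below 0.05 after Benjamini-Hochberg adjustment over all genes tested, within each of 31 comparisons. The GC slope is the slope of a library's log2 values on gene GC percent, known for 98.3% of tested genes. Alternatives were a pseudocount of 1, no filter, no TMM, edgeR (quasi-likelihood) and DESeq2 (1.42.0) on recovered reads, a replicate block, the GC slope, both together, fewer lines in the fit, and each library left out. The computations were tested on counts simulated with the same fixed spread for every gene. That spread was not matched to these libraries, so the test does not show how reliable the calls are here. On recovered reads, edgeR called 569 genes for irradiation averaged over both arms in WT, against 815 by limma.

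All 10 members were named whatever their values, with at most 4 called genes per list and comparison, and the 2 genes most like each member. Groups came from the labels, which do not say whether replicates were separate cultures, so p-values measure only the spread between these libraries. No 2 libraries of a group agreed within sampling noise (chi-square per gene at least 31.8). A check of the labels of the lines is not reported here.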

Additional observations from a re-analysis of the deposited data

Results flagged for a closer look

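FOS, the AP-1 subunit on the list of cyclin D1 inducers, responded differently to irradiation in WT and Null cells, in the direction opposite to CCND1. The averaged response of FOS in WT minus that in Null was -1.44 ± 0.26 on the log2 scale (adjusted p = 0.0395 by limma for the interaction). Irradiated WT libraries held 26.7 and 19.8 CPM without and 18.7 and 19.0 CPM with APR-246, within the range of the other WT libraries or just below it (18.9 to 34.5 CPM). Irradiated Null libraries held 44.6, 26.9, 43.5 and 27.8 CPM, above the unirradiated ones at 11.2 to 21.6 CPM. The call was lost without the filter (adjusted p = 0.0791), without TMM (0.383), in edgeR (0.0952), with WT and Null alone in the fit (0.137) and without any of 15 of its 16 libraries, WT APR-246 library 2 being the exception. No group had enough libraries for a test of single outlying libraries.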

How the results depend on the processing

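Over the 58 member differences examined here and 978 recomputations, 837 kept direction and side of the threshold, 110 became called, 25 lost a call and 6 changed sign. Those 6 were all CDK6 after irradiation in Null, -0.08 as reported, which became 0.14 with the GC slope, 0.16 with the replicate block and the GC slope, and -0.35 to 0.19 when single libraries were left out. The cause was not tested. Over all 279 member differences in 31 comparisons, 0 of the 15 called values changed sign under the 9 settings, while the GC slope changed 35 signs among the others, 2 of them then called, both for CDK4: in Mutant after irradiation (0.01 to -0.67) and for the mean of WT against Null (-0.16 to 0.22).

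Numbers of members called changed as follows. With the GC slope there were, for irradiation, combination, combination against APR-246 and averaged irradiation in WT, 5, 5, 4 and 5 (1 each as reported). Of the 20668 genes tested, 3732, 4476, 1740 and 5153 were called there. For irradiation, APR-246, combination and averaged irradiation there were 6, 6, 7 and 5 in Mutant and 5, 3, 8 and 3 in Null (0 as reported), and 1 for the combination against APR-246 in Null. Of all genes, 2788, 1392, 3411 and 2577 were called in Mutant and 4139, 3114, 5079 and 3782 in Null. The combination against APR-246 in Null had 547. The single and averaged responses of WT against Null gave 1 and 2, where 229 and 719 of all genes were called. Solvent comparisons gave 1 for WT against Null, 2 for Mutant against Null and 2 for Mutant against WT, and the means gave 4 for Mutant against Null and 7 for Mutant against WT. Of all genes, 1786, 3263 and 1051 were called in these solvent comparisons, and 7334 and 6565 in these means. The count of 4 is near its share. With the replicate block and the GC slope the same counts were 5, 5, 4 and 5 in WT, 7, 6, 6 and 6 in Mutant, 5, 4, 8 and 5 in Null and 1 against APR-246, then 1 and 2, 1, 2, 2, 4 and 8. The share of all genes called by that last model is not given here, so its counts cannot be set against one.

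With the replicate block alone, WT gave 3 for irradiation, 3 for the combination and 4 averaged, Mutant gave 5, 4, 5 and 3, Null gave 1, 4 and 1 for irradiation, combination and averaged, the averaged response of WT against Null gave 1, solvent gave 2 for Mutant against Null and 2 for Mutant against WT, and the mean of Mutant against WT gave 7. The shared replicate numbers were not taken as pairs: over 66 pairs of groups the correlation of deviations was -0.562 to 0.896 (median 0.629), and 11 pairs, all with Null APR-246, were below -0.1. The pairs without that group were at 0.384 to 0.896.

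Without TMM, irradiation and combination against APR-246 in WT and solvent Mutant against Null gave 0, and averaged irradiation in WT gave 2. That scaling moved the median of all genes by up to 0.188, for the combination in WT. In edgeR irradiation and combination against APR-246 in WT gave 0. In DESeq2 averaged irradiation in WT gave 2, the 3 Mutant treatments 1 each, the Null combination 1, the single and averaged responses of WT against Null 1 each and solvent Mutant against Null 2. Of all genes, DESeq2 called 1359 for averaged irradiation in WT, 20 and 67 for the responses and 962 for solvent Mutant against Null. With fewer lines in the fit, all 4 WT comparisons and solvent Mutant against Null gave 0, as did the latter without the filter. Leaving out single libraries gave 0 to 0 for irradiation and for the combination against APR-246 in WT and for solvent Mutant against Null, 0 to 1 for the combination in WT, and 1 to 2 for averaged irradiation in WT. With 2 libraries per group the median SE of a difference was 0.32, and a group left with 1 library was assumed to vary like the others.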
